A study of Solanum lycopersicum with 10 samples.

Results

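These data describe 192 cDNA clones that read higher in tomato leaves with an antisense Rboh gene than in wild type leaves, in wounded and in unwounded plants, and that changed little with wounding. They were chosen by measured values from 11153 rows of the array table, after 193 rows marked as failed quality control and 1 blank had been set aside. A clone was taken if its name did not begin with cLEC and if the mutant mean exceeded the wild type mean by 0.8 or more in each treatment. The change with wounding in wild type had to lie within 1 of 0, and its average over both genotypes within 0.5 of 0, both on the log2 scale. Of the 8941 rows outside cLEC, 2.15% met these limits.

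Total RNA of leaves was hybridised to 10 two-colour cDNA arrays, with the leaf RNA in channel 2 and the study's samples, pooled, in channel 1. There were 3 arrays of mutant systemic wounded leaves, 2 of mutant control leaves, 2 of wild type systemic wounded leaves and 3 of wild type control leaves. In the mutant an Rboh gene was introduced in antisense orientation. The systemic wounded leaves came from wounded plants and the control leaves from plants that were not wounded. Which Rboh gene was targeted, its promoter, the number of transgenic lines, plant age and the time after wounding are not given in the labels or the files. Replicates are not stated to be separate plants, so the spread between arrays may be technical.

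Rboh genes encode respiratory burst oxidase homologs, NADPH oxidases of the plasma membrane that pass electrons to oxygen outside the cell and so make superoxide. In plants these enzymes are known for the burst of reactive oxygen at infection and wounding, and for roles in growth and development. An antisense copy makes RNA complementary to the gene's own transcript and is used to lower it. The design asks which leaf transcripts differ with this change and whether wounding alters the difference. The files do not pair clone names with genes, and 0 of the 192 clones matched the RefSeq gene table of tomato (assembly SLM_r2.1), so the clones are described by name, library and value. Rboh itself and the markers of leaf were not analysed here for the same reason. Different clones can carry the same transcript, so 192 clones are not 192 independent genes.

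Values are log2 of leaf over pool, centred so that the median of the 11153 rows is 0 on every array. The labels name no dyes, so which way the ratio runs is not settled. Over all rows, wild type control replicate 3 had correlations of -0.43 and -0.33 with replicates 3 and 1 of mutant systemic wounded leaves. Its correlations were -0.22 to -0.04 with the other mutant arrays and 0.14 to 0.33 with the other wild type arrays. Directions below are for sample over pool. With the sign turned, the same 192 clones are lower in the mutant and 0 are higher, and every difference below changes its sign and keeps its size.

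The clones differed between the genotypes by a median log2 value of 1.12 over both treatments, or 2.17-fold. The range was wide, from 0.84 to 3.30, or 1.79-fold to 9.83-fold. Most differences were modest. The average difference was under 1 for 61 clones, 1.5 or more for 25, and 2 or more for 5. In systemic wounded leaves the mutant exceeded wild type by a median of 1.11, from 0.80 to 3.66. In control leaves the median was 1.07, from 0.81 to 3.13. All of these values were used to choose the clones and are given without a test. Whole leaves were measured, so less RNA per cell and fewer cells of a type cannot be told apart.

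**Figure D1:**
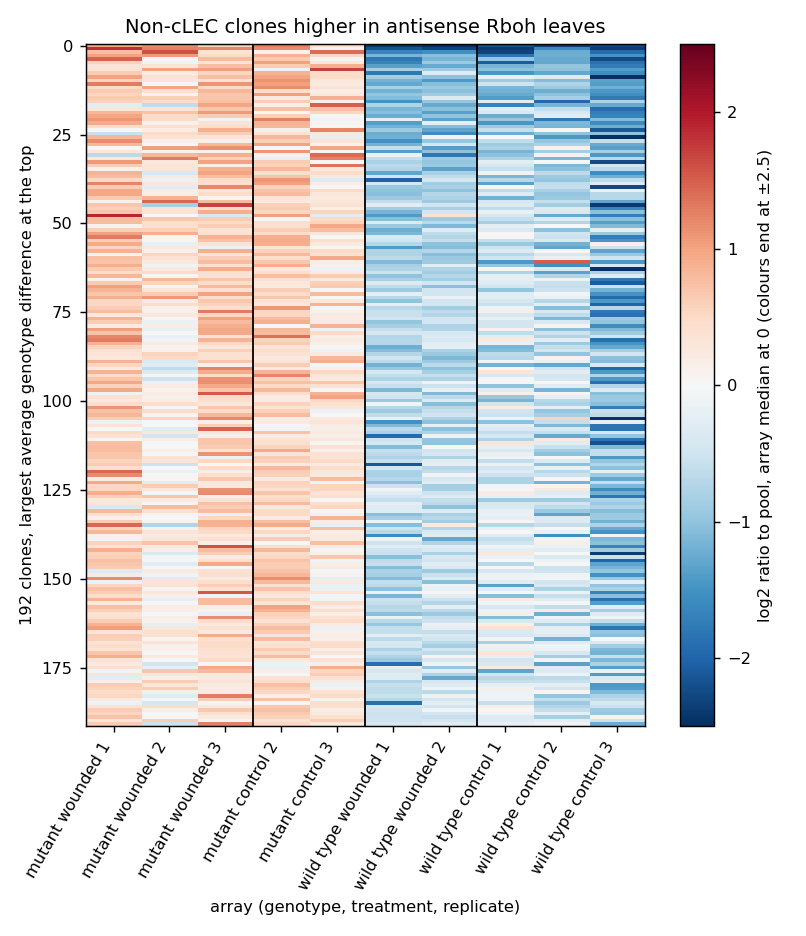
Log2 ratio to the pool (colour) of the 192 clones (rows, largest average genotype difference at the top) on the 10 arrays (columns, mutant on the left, wild type on the right). Red marks values above the array's median and blue values below it. Wild type control replicate 3, the last column, is the bluest, with a median of -1.10 over the clones.

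**Figure D2:**
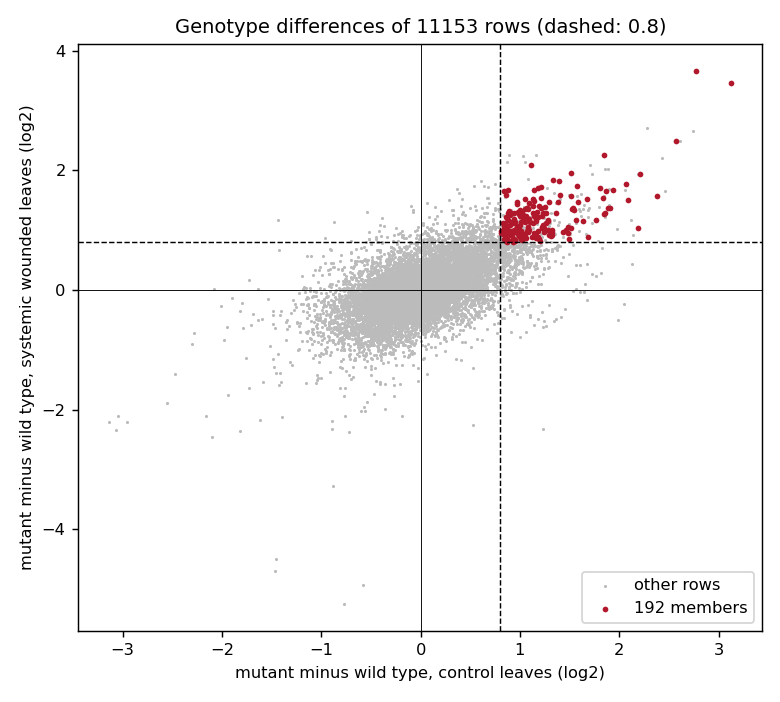
Mutant minus wild type in control leaves (horizontal axis) and in systemic wounded leaves (vertical axis), both log2, for 11153 rows, with the 192 members in red and the threshold of 0.8 dashed. Grey points beyond both thresholds are cLEC clones or clones left out for their change with wounding.

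The largest differences belonged to 3 clones of the cLED library. Clone cLED6G20 read 0.95, 1.14 and 0.56 on the mutant systemic wounded arrays, against -2.40 and -2.76 in wild type systemic wounded leaves. In control leaves it read 1.29 and 0.45 in the mutant, against -2.18, -2.35 and -2.25 in wild type. The genotypes did not overlap: its lowest mutant array lay 2.62 above its highest wild type array, the widest gap of the 192 clones. Its average difference was 3.30, or 9.83-fold, and its wild type control arrays lay within an SD of 0.09 (n = 3).

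Clone cLED6A13 read 1.84, 1.27 and 1.21 in mutant systemic wounded leaves, against -2.16 and -2.29 in wild type systemic wounded leaves. Without wounding it read 1.19 and 0.11 in the mutant, against -2.39, -1.60 and -2.38 in wild type. Mutant control replicate 3 was the lowest mutant array here, and the gap to the highest wild type array was still 1.71. The difference was 3.66 in wounded and 2.77 in control leaves.

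Clone cLED11K18 read 0.78, 1.60 and 0.34 in mutant systemic wounded leaves, against -1.62 and -1.54 in wild type systemic wounded leaves. In control leaves it read 0.09 and 1.39 in the mutant, against -2.32, -1.25 and -1.92 in wild type. Its mutant control arrays ran in the opposite order to those of the clones above, with replicate 3 high and replicate 2 low. Its average difference was 2.53, or 5.77-fold, and the genotypes did not overlap.

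Outside cLED, the clone with the largest average difference in its library reached 2.05 in cLEM, 1.98 in cTOA, 1.80 in cLET and 1.74 in cLES. Clone cLEM6O4 read 1.48, 0.04 and 0.80 in mutant systemic wounded leaves and 0.64 and 0.07 in mutant control leaves. Its wild type arrays read -1.79 and -1.16 in systemic wounded leaves and -0.97, -1.25 and -2.25 in control leaves. All mutant values were above 0 and all wild type values below it, although the mutant systemic wounded arrays were spread by an SD of 0.72 (n = 3).

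Clone cTOA5H3 read 0.55, -0.12 and 0.36 in mutant systemic wounded leaves, against -1.68 and -0.93 in wild type systemic wounded leaves. The control leaves gave 1.02 and 0.27 in the mutant, against -2.08, -1.28 and -1.86 in wild type. The genotypes did not overlap, and the difference was 1.57 in wounded and 2.38 in control leaves.

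Clone cLET23P9 read 0.32, 1.00 and 1.04 in mutant systemic wounded leaves, against -0.84 and -0.92 in wild type systemic wounded leaves. Its mutant control arrays were far apart, at -0.13 and 1.71, while its wild type control arrays read -1.02, -1.01 and -1.39. Clone cLES5I22 read 1.30, -0.05 and 1.11 in mutant systemic wounded leaves, against -1.28 and -1.07 in wild type systemic wounded leaves. In control leaves it read 1.02 and 0.25 in the mutant, against -0.53, -0.76 and -1.37 in wild type. Neither clone overlapped between the genotypes.

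In 2 libraries the clone of largest difference had its lowest value by far on wild type control replicate 3. Clone cLER3J11 had an average difference of 1.52, and its wild type control arrays read -0.58, 0.00 and -2.12. Its mutant arrays read -0.01, 0.18 and 0.89 in systemic wounded leaves and 0.16 and 1.22 in control leaves, so the genotypes overlapped on wild type control replicate 2. Clone cLEG42A23 had an average difference of 1.41, with wild type control arrays at -0.27, -0.02 and -2.23. Its lowest mutant array, control replicate 3, stood at -0.02.

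Clone cTOD2F8 behaved differently, with wild type control arrays close together at -1.16, -0.85 and -0.85. Its mutant control arrays read 1.11 and 0.02, so its spread lay in the mutant. Its average difference was 1.44. The remaining libraries with 3 or more of the clones, and the EST names, gave average differences of 1.59 for cLEF45I24, 1.38 for EST246848, 1.21 for cTOC5L16 and 1.16 for cTOB4M4. EST246848 overlapped between the genotypes, since mutant systemic wounded replicate 2 read -0.38 and wild type control replicate 1 read -0.11.

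**Figure D3:**
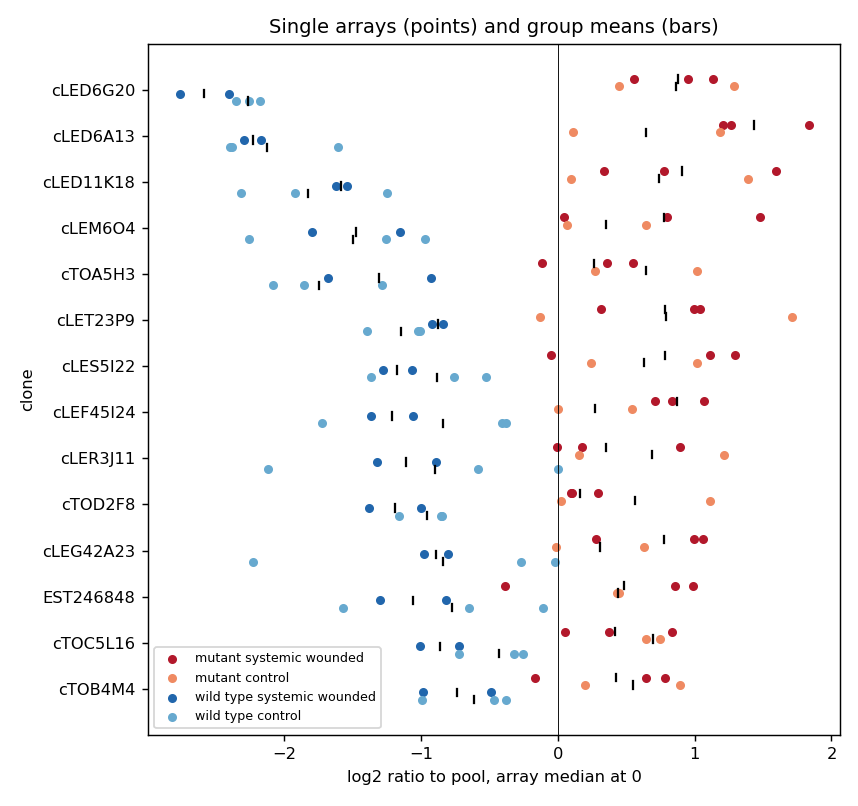
Log2 ratio to the pool (horizontal axis) on each array (points, coloured by group) with group means (black bars), for the clone of largest average genotype difference in each library with 3 or more of the 192 clones (EST names counted as a library) and the next largest clones of cLED. Mutant and wild type points separate fully for cLED6G20, with a gap of 2.62, and overlap for EST246848.

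The first letters of a clone name give the cDNA library it came from, except in names that begin with EST, which are sequence identifiers and show no library. As background from the tomato clone collections and not from the files, cLED was made from ovary and cTOA to cTOD from flower buds and flowers. Libraries cLEF, cLEG, cLEM and cLEN came from fruit, and cLER, cLES and cLET from leaves given an elicitor or a pathogen. A library says where a clone was isolated, not where its transcript is confined. The clones came from 13 libraries, and 5 had an EST name. Library cLED gave 65, which is 33.9% of the 192, cLEM 26, cLER 18, cLEF 17, cLET 17, cLES 15 and cLEG 8.

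Read against the rows that each library has on the array, cLED was near the overall share. Of its rows 2.59% were among the 192 clones, beside 2.15% of all rows outside cLEC. The flower libraries cTOA to cTOD gave 18 of 400 rows, or 4.50%, and cTOC alone 7 of 84, or 8.33%. The fruit libraries gave 51 of 2810 rows (1.81%), from 26 of 779 in cLEM (3.34%) and 17 of 956 in cLEF (1.78%) to 8 of 881 in cLEG (0.908%) and 0 of 194 in cLEN. The leaf libraries cLER, cLES and cLET gave 50 of 2497 rows, or 2.00%. These shares are descriptions of the chosen clones and were not tested. With the sign turned, they are shares of clones lower in the mutant.

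Over all of their 400 rows, the flower libraries had an average genotype difference above 0 for 54.8%, with a median of 0.06. In cLED it was above 0 for 44.9% of rows, with a median of -0.06, although cLED held the largest differences. The median difference of the chosen clones themselves was 1.18 in cLED, 1.11 in the flower libraries, 1.08 in the leaf libraries and 1.00 in the fruit libraries.

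**Figure D4:**
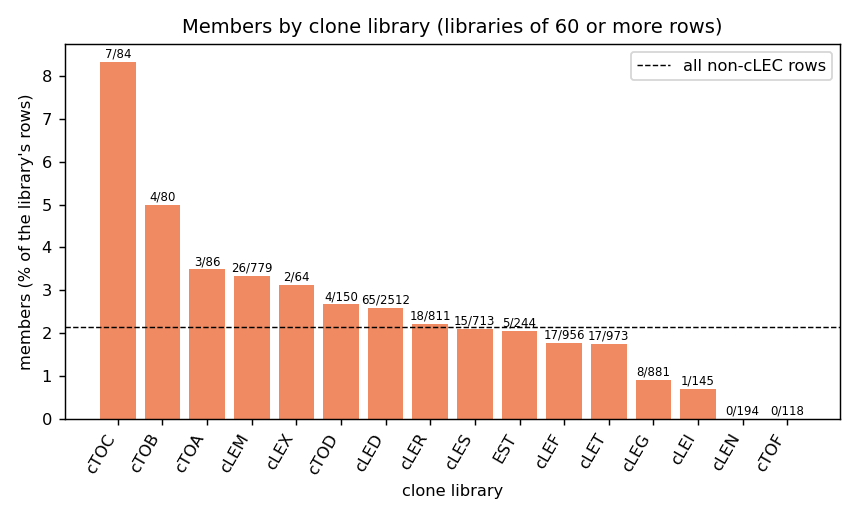
Share of each library's rows that are among the 192 clones (vertical axis, percent, with counts above the bars), for libraries of 60 or more rows outside cLEC, with EST names as a bar of their own. The dashed line is the share over all rows outside cLEC, 2.15%. Library cTOC stands highest at 8.33%, on 7 clones, and cLEN and cTOF have 0.

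Wounding moved these clones little, as the limits required. The median change with wounding was 0.01 in the mutant, from -0.80 to 0.79, and -0.02 in wild type, from -0.66 to 0.81. The difference between the genotypes was larger in wounded leaves for 104 of the 192 clones and larger in control leaves for the others. The interaction, which is the genotype difference in wounded leaves minus that in control leaves, had a median of 0.03 and lay within 0.5 of 0 for 172 clones. Over all rows this share was 79.4%, beside 89.6% of the chosen clones, whose limits on wounding restrict it.

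The most even clones were cTOB4M4, with a genotype difference of 1.16 in both wounded and control leaves, and cLER17A4, with 0.92 in both. Clone cLER17A4 read 0.32, 0.42 and 0.22 in mutant systemic wounded leaves, against -0.60 and -0.60 in wild type systemic wounded leaves. The control leaves gave 0.66 and 0.12 in the mutant, against -0.37, -0.25 and -0.97 in wild type. The most uneven clone was cLES20F2, with a difference of 1.03 in wounded and 2.19 in control leaves. It read -0.28, -0.63 and 0.98 in mutant systemic wounded leaves, a spread of more than 1.5 among arrays of 1 group, against -0.75 and -1.25 in wild type systemic wounded leaves. Clone cLEF45I24 went the other way, with 2.08 in wounded and 1.11 in control leaves. Its interaction was 0.97 (SE 0.53), and that of cLES20F2 was -1.16 (SE 0.67). By limma's moderated test with Benjamini-Hochberg adjustment over all rows, 0 of the 192 clones passed for the interaction, and 0 had an unadjusted p under 0.05. Over all 11153 rows, 0.00% passed and 266 rows had an unadjusted p under 0.05. The interaction is computed from the differences that chose the clones, so these counts are given as a description.

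The rule set no limit on the level relative to the pool. It used the same centred values, so these levels are not independent of the choice. Over the 5 mutant arrays the clones averaged a median of 0.45, from -0.04 to 1.12. Over the 5 wild type arrays they averaged a median of -0.67, from -2.39 to -0.40. The wild type mean lay further from 0 than the mutant mean for 175 of the 192 clones, or 91.1%, beside 57.4% of all rows. The 60 clones of any library that met the limits in the other direction had the signs reversed. Their medians were -0.57 over the mutant arrays and 0.52 over the wild type arrays. In cLED6G20 and cLED6A13 the wild type arrays lay between -2.76 and -1.60 and the mutant arrays between 0.11 and 1.84.

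In an equal mixture of the 10 samples, the 10 linear sample-over-pool ratios of a transcript would average 1. The ratios averaged here had array medians set to 0, which can shift the average. In this paragraph, as deposited refers only to the direction of the ratio. For the 192 clones the average had a median of 1.03, from 0.787 to 1.28. With the ratios inverted, the median was 1.23, from 1.05 to 2.93. The ratios as deposited gave an average nearer to 1 for 175 of the 192 clones and for all 25 clones with an average difference of 1.5 or more. For cLED6G20 the averages were 1.04 as deposited and 2.93 inverted. Over all rows the medians were both 1.03, and the ratios as deposited were nearer to 1 for 5569 of 11153 rows. For the 60 clones that met the same limits in the other direction, from any library, the averages had medians of 1.08 as deposited and 1.15 inverted, and 39 were nearer to 1 as deposited. How the pool was mixed is not stated in the labels. On all 10 arrays, 11 rows lay below -1, 0 of them among the 192 clones. Exact ratios to an equal mixture do not allow this, but measured and centred ratios can depart from them. These values do not settle the direction.

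The arrays of each group did not contribute alike. Over the 192 clones the medians were 0.61, 0.17 and 0.52 on mutant systemic wounded replicates 1, 2 and 3 and 0.57 and 0.25 on mutant control replicates 2 and 3. They were -0.72 and -0.67 on the wild type systemic wounded arrays and -0.40, -0.55 and -1.10 on wild type control replicates 1, 2 and 3. All medians lay above 0 in the mutant and below 0 in wild type. Between 142 and 184 of the 192 clones read above 0 on each mutant array, against 0 to 24 on each wild type array. Of all 11153 rows, 5552 to 5575 read above 0 on each array, whose median is set to 0. The clones were chosen for mutant above wild type on these arrays, so such counts add no evidence. For 81 clones (42.2%, beside 2.28% of all rows) every mutant array was above 0 and every wild type array below it. The median SD within a group was 0.34 in mutant systemic wounded, 0.33 in mutant control, 0.21 in wild type systemic wounded and 0.47 in wild type control leaves. Mutant systemic wounded replicate 2 was the lowest of its group for 127 clones (66.1%, beside 33.2% of all rows), and mutant control replicate 3 for 134 (69.8%, beside 50.0%).

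The clones with mutant control replicate 3 above replicate 2 numbered 58. Their medians on mutant systemic wounded replicates 1, 2 and 3 were 0.35, 0.28 and 0.62. The 134 clones with replicate 2 above replicate 3 had medians of 0.64, 0.14 and 0.47 there. Across the 192 clones, mutant control replicate 2 minus replicate 3 correlated at r = 0.53 with the deviation of mutant systemic wounded replicate 1 from its group mean, and over all rows at r = 0.39. These are correlations across clones on shared arrays and carry no test. Mutant control replicate 2, named by its title, and mutant systemic wounded replicate 1 both have number 1 in the sample descriptions. So do wild type control replicate 1 and wild type systemic wounded replicate 1. The deviations of those wild type arrays gave r = 0.15 and -0.28 across the 192 clones. Over all rows they gave r = 0.39 and -0.30, so arrays of number 1 did not all vary alike. What arrays of the same number share is not given in the labels.

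Wild type control replicate 3 set the lower end for most of the clones. It was the lowest of the wild type control arrays for 125 of the 192 clones (65.1%), beside 36.7% of all rows. It was the lowest of all 10 arrays for 105 clones (54.7%), beside 20.6% of all rows. For 47 clones (24.5%, beside 4.50% of all rows) it lay more than 1 below the next wild type control array. This array also had the widest distribution of the 10, with an interquartile range of 0.77 over all rows, beside 0.39 to 0.52 on the others. Without it, with the array medians kept, the genotype difference in control leaves was above 0 for all 192 clones, beside 48.7% of all rows. The difference was 0.8 or more for 124 clones (64.6%), beside 4.81% of all rows. The control arrays that remain were also used to choose the clones, so these counts add no evidence. Over the 192 clones the median difference was then 0.92, and the lowest was 0.0013 for cLET43M24. That clone read 0.18 and 0.24 in mutant control leaves, against -0.16, 0.58 and -2.45 in wild type control leaves. The full rule applied without this array gave 135 clones, of which 122 were among the 192.

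**Figure D5:**
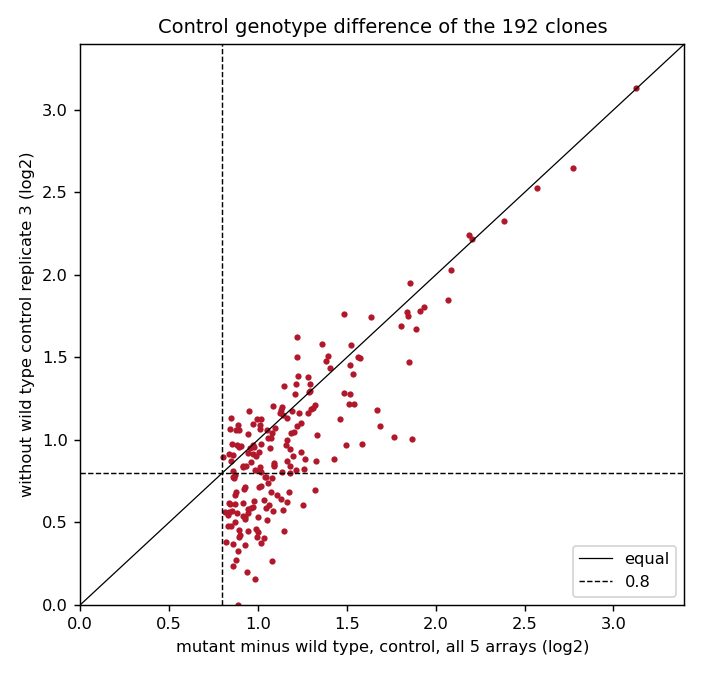
Genotype difference in control leaves (log2, mutant minus wild type) of the 192 clones with all 5 control arrays (horizontal axis) and without wild type control replicate 3 (vertical axis), with equality as a solid line and 0.8 dashed. Clone cLED6G20, farthest to the right, stays on the line, and 124 of the 192 stay at 0.8 or more. Some clones fall below the line and others lie above it, such as cLES20N8, with 1.22 against 1.62 without the array.

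All 5 mutant arrays exceeded all 5 wild type arrays for 134 of the 192 clones, beside a background of 5.10% of all rows. In systemic wounded leaves alone the genotypes did not overlap for 176 clones, beside 16.7% of rows in that direction, and in control leaves for 171, beside 15.1%. The rule used the same differences, so nothing is read from these counts. With the sign turned, they count wild type above mutant.

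In limma's fit over all 10 arrays, 127 of the 192 clones passed for genotype over both treatments at an adjusted p under 0.05, all higher in the mutant, beside 3.08% of all rows in that direction. In systemic wounded leaves 17 passed, beside 0.421% of all rows, and in control leaves 16 passed, beside 0.359%. For wounding over both genotypes 0 of the clones passed, beside 0.771% of all rows, all higher in wounded leaves. At an unadjusted p under 0.05 there was 1 of the clones, lower in wounded leaves, beside 2.11% of all rows in that direction. These contrasts chose the clones, and the counts add no evidence to the choice. The counts depended on single arrays. Over both treatments, leaving out mutant control replicate 2 gave 50 and leaving out mutant control replicate 3 gave 79. Omitting replicate 1 or 3 of mutant systemic wounded leaves gave 81 or 75, and omitting replicate 1 or 2 of wild type systemic wounded leaves gave 36 or 63. In control leaves it was 2 or 9 when mutant control replicate 2 or 3 was dropped, and 8 or 4 when wild type control replicate 1 or 3 was dropped. In wounded leaves, dropping replicate 1, 2 or 3 of the mutant systemic wounded arrays gave 3, 8 or 3. Dropping replicate 1 or 2 of the wild type systemic wounded arrays gave 2 or 1, and dropping wild type control replicate 3 gave 37. Where this leaves 1 array in a group, that array is assumed to vary like the others.

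All 192 clones kept a positive average difference in each of the 18 other fits and left-out arrays. They were chosen for such a difference, so its sign adds no evidence. Most of the 192 did not pass for genotype over both treatments in every one of these settings. Of the named clones, cLED6G20, cLED6A13, cLED11K18, cLEM6O4, cTOA5H3, cLET23P9, cLES5I22, cLEF45I24 and cTOD2F8 passed for genotype over both treatments in all 18. Clone cLER3J11 lost its call in 8 and EST246848 in 7, while cLEG42A23, which did not pass with all arrays, passed in 8.

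At the threshold the clones were hard to tell from their neighbours. The clones just inside it were cLET10L3, with differences of 0.80 in wounded and 0.93 in control leaves, cLEG41H7, with 0.80 and 0.87, and cLEF42C23, with 0.96 and 0.81. Just outside it were cLER19B16, with 0.80 and 1.00, EST281225, with 0.90 and 0.80, and cLER1D23, with 0.84 and 0.80, each with its lower value under the threshold before rounding. EST281225 did not overlap between the genotypes, with a gap of 0.57, whereas the gap of cLEG41H7, inside the threshold, was -0.44, meaning an overlap. The limits on wounding left out 24 further clones that met both genotype thresholds, 13 with a positive and 11 with a negative average change with wounding.

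The rows outside the 192 whose 10 values followed the mean of the clones most closely were cLEF46K10, with Pearson's r = 0.97, cLEC37F2, with 0.97, and cTOB11N7, with 0.97. Clone cLEC37F2 differs from the chosen clones in its library name, with genotype differences of 1.70 in wounded and 1.28 in control leaves. Clones cLEF46K10 and cTOB11N7 missed the threshold, with lower differences of 0.65 and 0.76.

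The cLEC library, which as background was made from callus, met the same limits with 81 clones. The share outside cLEC was 2.15%, against 3.66% of the 2212 cLEC rows. The average difference had a median of 1.12 for the 192 clones, against 1.20 for the cLEC clones. The median interaction was 0.03 for the 192 clones, against -0.14 for the cLEC clones. On wild type control replicates 1, 2 and 3 the 192 clones had medians of -0.40, -0.55 and -1.10, against -0.85, -0.68 and -1.11 for the cLEC clones. Both sets were chosen on these values, so the differences between them were not tested. In the other direction 60 clones of any library met the limits, with a median difference of -1.07. The like count in the direction of the rule, cLEC included, was 273.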

How the data were processed

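The deposited table holds 1 log2 ratio per clone and array, since on each array 99.7% to 100.0% of them equal log2 of a 3-decimal ratio to within 0.02 thousandths. Per the labels, a leaf sample is in channel 2 and a pool of all samples in channel 1. No source used here gives the background correction, the image software or any scaling between arrays. The deposited array medians lay between -0.01 and 0.07. Signal intensities were not analysed here, and precision is limited by how few arrays there are.

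Array medians were subtracted over 11153 rows, after leaving out 193 failed rows and 1 blank. Group means of the 4 groups were fitted to all rows in R 4.3.3 (limma 3.58.1, lmFit then eBayes), with Benjamini-Hochberg adjustment over all rows, two-sided, on 6 residual and 6.45 prior degrees of freedom. The fit was tested on simulated data. Alternatives were other normalizations, thresholds, group medians, array weights, eBayes settings, smaller fits, replicate blocks and each array left out. The clones, the gene lists and the rule for named clones were chosen with earlier results of these data known. The rule names the 3 largest average genotype differences, the largest in each library with 3 or more of the clones (EST names counted as a library), the 2 smallest and 2 largest interactions, the 2 widest gaps, the 3 clones on each side of the threshold, and the 3 rows most like the mean of the clones. Clone cLET43M24 was named after its values were seen. The 9 gene lists (NADPH oxidase, wound defence, jasmonate, oxidative stress, floral MADS-box, photosynthesis, and markers of flower and ovary, root and trichome) matched 0 rows. Plots were drawn with matplotlib 3.10.9.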

Additional observations from a re-analysis of the deposited data

Results flagged for a closer look

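The comparisons did not use rows whose names mark a quality failure. Of these 193 rows, 7 met the limits of the rule (3.63%, beside 2.45% of the 11153 rows used, cLEC included). They were flagged for lying in data not otherwise used, and nothing is read from a share this near the background. The average difference of the 7 rows, mutant minus wild type, had a median of 1.12 and ran from 0.87 to 1.40. The genotypes did not overlap for 1 of the 7, beside 134 of the 192 clones and 5.10% of all rows used. Their names do not show a library, so cLEC clones may be among them. With the sign turned they are lower in the mutant. No group has 4 or more arrays, so single arrays were not tested for standing apart.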

How the results depend on the processing

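The rule gave 192 clones, 294 at a threshold of 0.7 and 88 at 1, and 135 to 231 with an array left out. It gave 158 with quantile and 171 with scale normalization, sharing 152 and 163 with the 192, 183 without centring, 199 with failed and blank rows kept, and 165 with group medians, sharing 126. For genotype over both treatments 127 clones passed, and 36 to 132 with an array left out. In control leaves the count of 16 dropped to 2 under eBayes with trend and robust settings, to 1 when only those groups were fitted, and was 2 to 16 on omitting an array. In wounded leaves, where 17 passed, the counts were 39 (quantile), 27 (scale), 53 (array weights), 6 (eBayes with trend and robust settings) and 34 (only those groups fitted), and 1 to 37 on omitting an array. The interaction gave 0 in every setting run. A replicate block gave, by title number, 96 over both treatments, 7 in control and 8 in wounded leaves, and by description number 129, 9 and 12. Same-numbered arrays of different groups had correlated deviations of -0.35 to 0.34 by title and -0.35 to 0.39 by description. Arrays of different number had -0.39 to 0.39 by title and -0.39 to 0.35 by description. Whether same-numbered arrays share more than a number was not tested. The cause of the shifts in the counts was not tested either. The named clones kept their side of the threshold in 139 of 152 cases of changed settings and in 156 of 190 cases of an omitted array, and no sign changed.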

Other observations

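Clone names also give a plate and a well. Of the 192 clones, 187 had both in the name, on 79 of the 407 plates outside cLEC. The plate with most was cLEM 6, with 16 of its 215 rows (7.44%), followed by cLED 6, with 12 of 338 (3.55%), and cLER 1, with 8 of 276 (2.90%). Of the 61 plates with 20 or more rows, 18 held none of the clones and 3 held more than 5%. Within plate cLEM 6, well row G held 5 of the 16 clones, among 18 rows, and well row O held 3 among 15. The average genotype difference over all rows of that plate was above 0 for 57.2%, with a median of 0.08. Over all plates outside cLEC, the share of rows among the 192 clones ran from 1.17% in well row D, 7 of 596, to 3.91% in well row O, 19 of 486. These shares were looked at after the values were seen and carry no test. Whether plates or wells follow the printing of the array is not given in the sources used here.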
